A study of Homo sapiens with 2 samples.

Results

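N6-methyladenosine (m6A) was mapped in GM12878, an established human line of B lymphocytes immortalised by the Epstein-Barr virus, and the results below concern its very long internal exons. RNA was fragmented, fragments bound by an m6A antibody were recovered (the immunoprecipitate, IP), and the IP and the unselected fragments (the input) were sequenced, with 1 library of each. Coverage, scaled within each library, was deposited along exons for windows 100 nt wide, with a new window every 50 nt. An exon counted as internal when it was neither the first-listed nor the last-listed exon of the longest listing of its gene, and as very long when it held 21 or more windows, about 1050 nt. Some of these exons may end the transcript in another isoform, which was not separated and bears on each comparison of internal with terminal exons. The gene's mean input coverage had to be at least 1. This gave 22449 windows in 586 exons of 540 genes, out of 705372 windows in the 10767 genes that met the input minimum and 1983959 windows in all. The members were chosen by input level and exon structure, not by enrichment, but the class was singled out with its enrichment known, so every value is a description and none is tested. With 1 library a group there is no replicate check, and intervals are exact 95% binomial intervals that cover counting error only.

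The cell line matched its label, since the B cell genes CD79A, MS4A1, CD79B and PAX5 had mean input coverages of 93.2, 44.9, 14.7 and 14.3, while all 5 pluripotency genes stood at or below 0.153 (SOX2). A source field naming mouse embryonic stem cells disagrees with the organism and cell line fields. The kept transcripts held about 58.5 M reads in the IP and 51.7 M in the input, of which the member exons took about 3.24 M and 1.06 M. Some exons were listed under 2 gene names with identical coverage (19 pairs), which left 567 distinct exons. The gene passed the input minimum, not the exon, and 23 of the 586 exons had a mean input below 1 themselves.

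Most internal exons of human genes are short, and a small class exceeds 1000 nt. m6A is laid down during transcription by the METTL3 and METTL14 methyltransferase with its adaptors, at a short consensus around the modified adenosine, and is known to gather in long internal exons and near stop codons. Genes with such exons often encode large nuclear proteins, among them chromatin regulators, zinc finger factors, DNA repair proteins and centrosome or kinetochore scaffolds. The windows carry no genome positions, so the sequences of these exons are not shown.

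Very long internal exons carried enriched windows in most cases. The authors' window score divides the IP by the gene's IP median, divides the input by the gene's input median and takes the log2 of their ratio, and a window was called at a score of 2 or more, a 4-fold excess. Of the 22449 member windows 4319 were called (19.2%, interval 18.7 to 19.8), against 5.75% of all windows in genes that met the input minimum and 2.64% of windows in all genes. Depleted windows, with a score of -1 or less, made up 2.25% of member windows (506), against 4.08% in genes that met the input minimum. A region, meaning a run of at least 2 called windows, was found in 450 of 586 exons (76.8%, 73.2 to 80.2), against 55.9% of all exons of 21 or more windows and 5.42% of all exons with at least 2 windows. Member windows made up 3.18% of the windows and 10.6% of the called windows in these genes. Among internal exons alone they made up 7.38% of windows and 44.5% of called windows. Called windows had a median coverage of 43.9 in the IP and 3.99 in the input, about 453 and 65 reads. Member windows that were not called had 7.41 in the IP and 3.05 in the input. Neighbouring windows overlap and share reads, so intervals over windows are too narrow, and those over exons are the safer guide.

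The number of regions per exon was small. A single region was present in 219 exons, 2 regions in 150, 3 in 61 and 4 or more in 20, with at most 7. The median longest region held 5 windows. Of the 586 exons, 122 had no called window at all, and 68 had more than 50% of their windows called. Exons without a region had a median of 29.5 windows and a median input of 2.78, against 32 windows and 3.95 in exons with one. Among the 23 exons whose own mean input was below 1, only 6 had a region (26.1%, 10.2 to 48.4), against 444 of the other 563 (78.9%, 75.3 to 82.2).

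**Figure D1:**
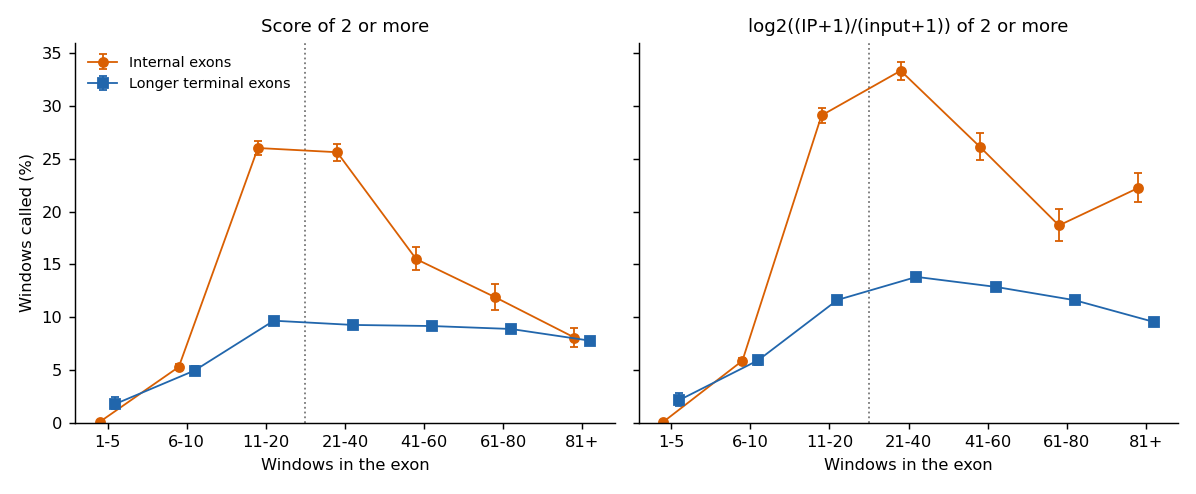
Share of windows called, in percent with exact 95% intervals, by number of windows in the exon, for internal and longer terminal exons. Left, score of 2 or more; right, log2 of (IP + 1) over (input + 1) of 2 or more; the dotted line marks the start of the very long class. Internal exons peak at 11 to 40 windows, and their decline in longer exons is steeper on the left than on the right.

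By the authors' score, longer member exons had a smaller share of called windows but about the same number of them. Of all windows, 25.6% were called in exons holding 21 to 40, 15.5% at 41 to 60, 11.9% at 61 to 80 and 8.07% at 81 to 164. The median number of called windows over the same classes was 6, 6, 6 and 7. The share of exons with a region was 74.9% (70.5 to 79.0), 79.1% (69.3 to 86.9), 76.9% (60.7 to 88.9) and 93.9% (79.8 to 99.3). Across the 586 exons the rank correlation of window number with called windows was 0.105, and with the percentage called -0.198. These points share 2 libraries, and exons of 1 gene share its medians. At the boundary of the class, the 38 exons of 21 windows had 26.6% of windows called (23.5 to 29.8), and the 39 internal exons of 20 windows had 35.0% (31.7 to 38.5).

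**Figure D2:**
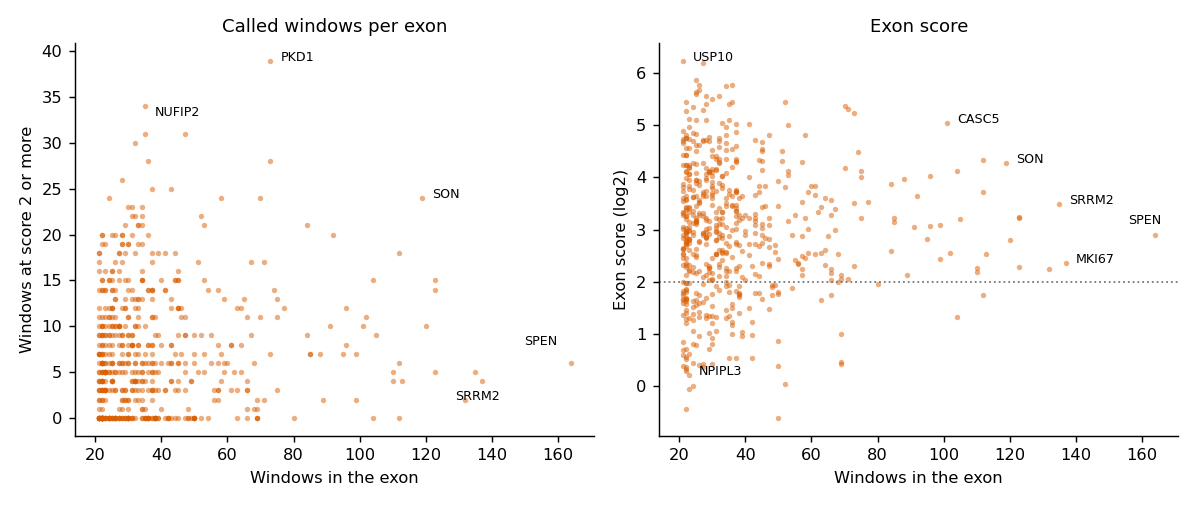
Called windows (left) and exon score (right, log2, highest mean of 2 neighbouring windows) against the number of windows, 1 point for each of the 586 exons. Exons beyond 100 windows have no more called windows than many exons of 21 to 40, and the dotted line on the right marks a score of 2.

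The gene median enters this trend, because a very long exon supplies part of the median it is measured against. A member exon held a median of 27.7% of its gene's windows, with 23.9% at 21 to 40 windows and 53.3% at 81 or more, and 66 exons held over 50%. Without centring, a log2 ratio of IP to input, with 1 added to each, of 2 or more was met by 28.4% of member windows (27.85 to 29.04), against 7.72% of all windows in genes that met the input minimum. By length this uncentred share was 33.3%, 26.2%, 18.7% and 22.2%, so the longest exons stood above those of 61 to 80 windows. From the shortest to the longest class the uncentred share fell less than the window number rose. The mean number of such windows per exon was therefore larger in the longest class. By the score, 3034 windows were called in the 423 exons of 21 to 40 windows and 286 in the 33 longest. That mean rose too, but by less. With medians taken over the gene's other exons only, a check added after the data had been seen, the shares were 32.6%, 25.8%, 18.5% and 18.96%. Among exons of 21 to 40 windows, the 232 holding up to 25% of their gene's windows had 30.5% called, and the 20 holding over 50% had 6.11%. Without centring these exons had 33.9% and 19.3%, so a lower share remained in the 20 exons when the gene median was not used. The median of their mean inputs was 4.36 and 2.89. Above 40 windows, exons holding up to 25%, 25% to 50% and over 50% of the gene had 16.3%, 13.2% and 8.95% called. Without centring these had 22.0%, 20.2% and 27.6%, so there the 46 exons holding over 50% stood highest. Median input over the 4 length classes was 3.53, 3.25, 2.45 and 3.23, lowest at 61 to 80 windows.

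Enrichment was not limited to peaks, since the IP exceeded the input along most of these exons. The median log2 ratio of IP to input over member windows was 1.22, against -0.06 over all windows in genes that met the input minimum. The exon's own median ratio was above 0 in 553 of 586 exons, above 1 in 390 and above 2 in 120. In 438 genes the very long exon could be set against at least 10 windows of short internal exons of up to 5 windows. The ratio was higher in the very long exon in 425 of these genes, lower in 8 and equal in 5. The median difference was 1.49 on the log2 scale, with quartiles of 0.95 and 1.95. The 2 kinds of exon were not matched for input, with medians over the member genes of 3.25 in very long and 1.86 in short exons. Windows of short exons also all lie close to an edge. In very long exons the outermost windows had a median IP of 2.81, against 10.4 over all member windows. Called windows made up 0.130% (0.0856 to 0.189) of the windows in short internal exons of the member genes, and 10.6% (9.76 to 11.5) in their internal exons of 6 to 20 windows.

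In the same genes the very long internal exon was usually enriched more densely than the longer terminal exon. Of 362 genes whose longer terminal exon also had 21 or more windows, the internal exon had the higher called share in 264, the terminal exon in 84, and 14 were equal. The median share was 20.8% in the internal and 4.26% in the terminal exon. Both carried a region in 157 genes, the internal exon alone in 143, the terminal exon alone in 42 and neither in 20. The 2 exons of a gene were matched for neither length nor input. Over all 540 member genes, median input was 3.25 in the very long internal and 1.97 in the longer terminal exons. Over all genes that met the input minimum, called windows made up 16.4 percentage points more (15.5 to 17.2) in internal than in longer terminal exons of 21 to 40 windows. Above 40 windows the difference was 3.61 points (2.98 to 4.26). That smaller difference turned to -0.32 points at a score of 3 and to -3.15 points in better covered windows, those whose input reached both 5 and the gene's median. It grew to 11.8 points without centring. Median input was 2.97 in internal and 1.92 in longer terminal exons of over 40 windows. Against internal exons of 11 to 20 windows, with 26.0% called (25.3 to 26.7), members of 21 to 40 windows stood at 25.6% (24.8 to 26.4), and these intervals overlap. The classes lay apart on other measures: without centring members of 21 to 40 windows had 33.3% (32.5 to 34.2) against 29.1% (28.4 to 29.8), and 74.9% of them had a region against 56.4%. A longer exon has more windows in which a region can fall. Nearer the boundary the classes did not lie apart on these 2 measures, the uncentred share and the share with a region. Internal exons of 16 to 20 and of 21 to 25 windows had 32.7% (31.5 to 33.9) and 32.3% (30.9 to 33.8) without centring. A region was found in 68.6% (63.4 to 73.6) and 72.4% (65.3 to 78.7) of them. By the score the longer of these 2 classes stood lower, with 26.7% called (25.37 to 28.10) against 29.3% (28.14 to 30.47).

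Called windows were scarcer at the 5′ edge of these exons than at the 3′ edge. Strand was known for 411 of the 540 genes, from a RefSeq table. Exons are listed in genome order: the last-listed exon was the longer terminal one in 91.1% of plus-strand genes and the first-listed one in 90.5% of minus-strand genes. The last-listed window of an exon was partly empty, with a median input of 0.599 at 3′ and 0.438 at 5′ edges, so edges are compared at the first-listed end, where input was even. This sets the 3′ edges of 203 minus-strand exons against the 5′ edges of 242 plus-strand exons. In the outermost window 16.7% were called at 3′ edges (11.9 to 22.6) and 3.31% at 5′ edges (1.44 to 6.41). The median IP was 8.01 at 3′ and 5.24 at 5′ edges, while the median input was 3.47 and 3.64.

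At the first-listed end both edges reached a like level farther in. At 100 nt the called share was 30.05% from the 3′ edge (23.8 to 36.9) and 15.3% from the 5′ edge (10.999 to 20.4). At 250 nt it was 28.6% (22.5 to 35.3) and 28.9% (23.3 to 35.1). The last-listed end gave the same order at 100 nt, with 18.6% at 3′ (13.9 to 24.1) and 5.91% at 5′ edges (3.09 to 10.1). At 250 nt it still had 32.6% at 3′ (26.8 to 38.9) and 24.1% at 5′ edges (18.4 to 30.6), though these intervals overlap. At that end the strands were swapped. Within a strand, the 2 edges lie at opposite listed ends. At 100 nt plus-strand exons had 18.6% at 3′ and 15.3% at 5′ edges, with overlapping intervals, and minus-strand exons 30.05% and 5.91%. In the outermost window plus-strand exons had 2.89% at 3′ edges, where that window was partly empty, and 3.31% at 5′ edges. Within a strand, the wide gap was thus seen in minus-strand exons only. Their 5′ edges lie at the partly empty last-listed end, as do the 3′ edges of plus-strand exons. A difference between strands therefore cannot be told apart from the listed end. Without centring the outermost windows at the first-listed end stood at 21.2% at 3′ and 5.37% at 5′ edges. In exons with a region the highest window lay at a median of 600 nt from the 3′ edge and 800 nt from the 5′ edge. It fell in the 3′ part of the exon, beyond the middle, in 198 of 349 exons (56.7%, 51.4 to 62.0).

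**Figure D3:**
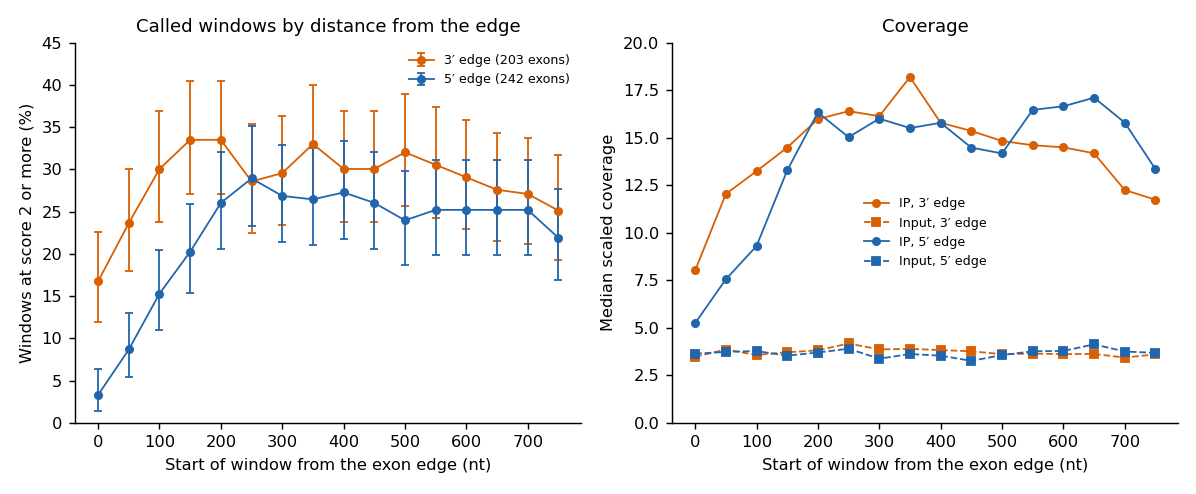
Left, percent of windows at a score of 2 or more with exact 95% intervals; right, median scaled coverage of IP (solid) and input (dashed); both against the start of the window from the 3′ edge (203 minus-strand exons) or 5′ edge (242 plus-strand exons). Input is flat, the IP is low at both edges and lower at the 5′ edge, and the curves meet near 250 nt.

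Deep inside the longest exons called windows became scarce again. In the 72 exons of 61 or more windows, 18.5% of windows that started 200 to 450 nt from the nearer edge were called (15.98 to 21.3). The share was 13.1% at 500 to 700 nt, 8.89% at 750 to 950 nt, 9.10% at 1000 to 1450 nt and 5.31% (4.34 to 6.42) from 1500 nt onward. Median input over these bins was 2.91, 2.76, 2.75, 2.66 and 3.27, and was highest in the deepest bin. The uncentred share was 31.4%, 26.8%, 19.2%, 18.3% and 17.0%, which is a smaller decline in proportion. When each exon counted equally, 8.10% of windows from 1500 nt onward were called.

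Exons next to the first exon had 27.7% of windows called (25.9 to 29.5, 78 exons), against 18.9% in other internal positions (18.2 to 19.6, 315 exons) and 15.3% next to the last exon (13.4 to 17.4, 37 exons). Without centring the shares were 37.2%, 27.1% and 27.4%, so exons next to the last exon no longer stood below other internal ones. The share of exons with a region was 80.8%, 79.7% and 73.0%. Their median window numbers were 28, 32 and 28. The 15 exons that were the only internal exon had 14.2% of windows called (11.4 to 17.4) but 43.2% without centring, and 53.3% of them had a region.

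The exon score, the highest mean of 2 neighbouring window scores, had a median of 2.999 and quartiles of 2.17 and 3.83. It was at least 4 in 128 exons and at least 5 in 32. USP10, a deubiquitinating enzyme, led with 6.23. Its exon of 21 windows reached an IP coverage of 1766 against an input of 21.001 at the peak, an 84.1-fold excess (interval 75.5 to 93.8), where the gene medians were 9.41 in the IP and 8.90 in the input. Enrichment ran over 16 consecutive windows. CXXC4, a CXXC zinc finger inhibitor of Wnt signalling, scored 6.19, with 429 in the IP and 6.40 in the input at the peak (67.0-fold, 55.1 to 82.1). Its gene median in the IP was 0.752.

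The other exons with the highest scores included signalling kinases, a coactivator and an uncharacterised locus. An uncharacterised locus listed as LOC100289019, RP11-395P17.3 and XLOC_007858 took 3 of the 10 places, with scores of 5.86, 5.64 and 5.59 and near-identical coverage (284 in the IP and 2.32 in the input at the peak of the first). REXO1, an RNA exonuclease family gene, scored 5.77, with a peak of 632 in the IP and 6.78 in the input. MAP3K1 and MAP3K4, kinases at the top of MAP kinase cascades, scored 5.77 and 5.55. MAP3K1 peaked at 208 in the IP and 2.88 in the input, and MAP3K4 at 326 and 4.37. KIAA0240 (now BICRAL, of a SWI/SNF chromatin remodelling complex) scored 5.74 and NCOA2, a steroid receptor coactivator, 5.68, with a run of 14 called windows that began at the first-listed edge. Peak input in this group was at or below 6.78 everywhere except in USP10, against a median of 3.25 over all member windows.

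**Figure D4:**
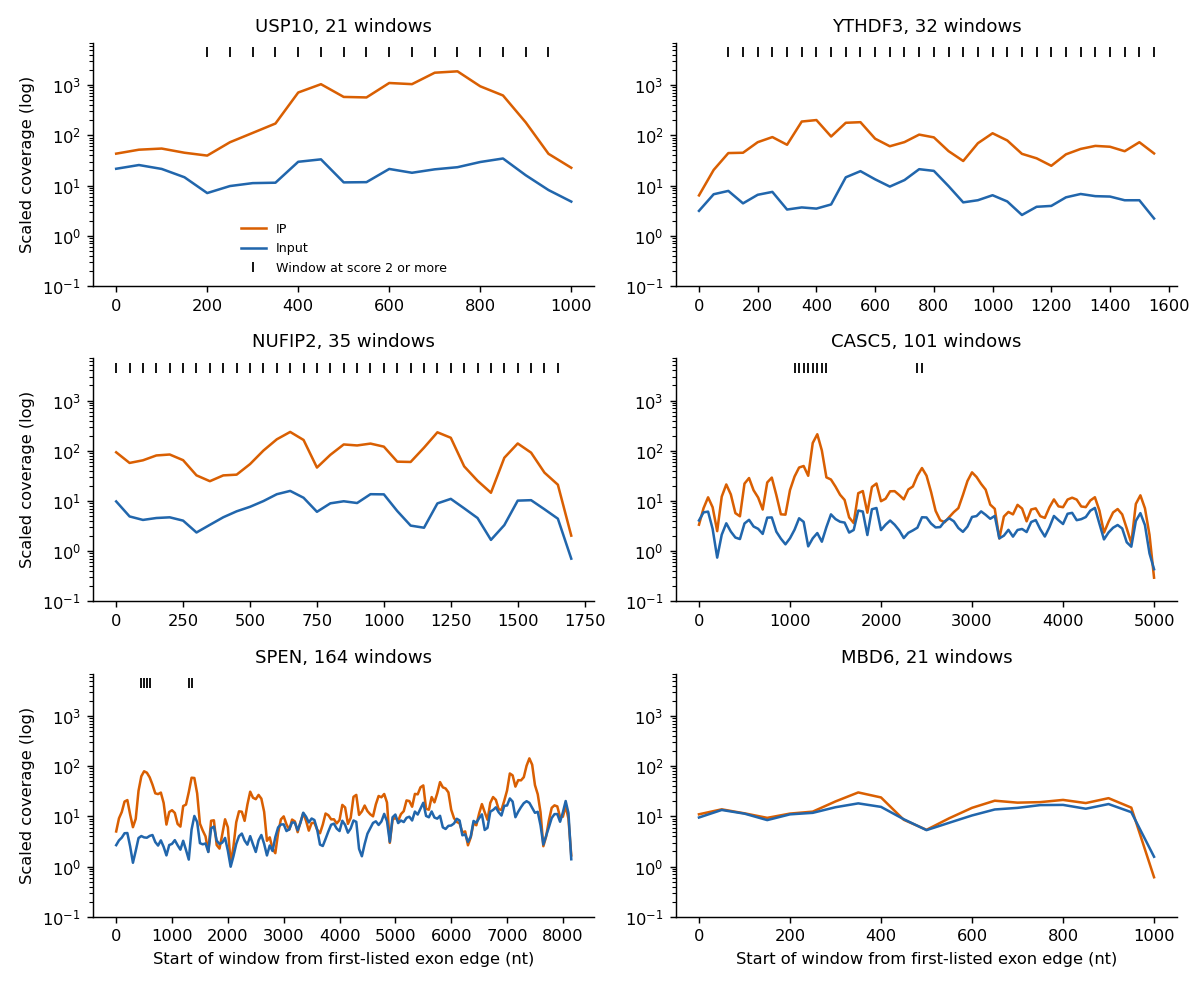
Scaled coverage (log axis) of IP and input along 6 exons, by start of the window from the first-listed edge; ticks mark windows at a score of 2 or more. In NUFIP2 and YTHDF3 the IP stays above the input along nearly the whole exon, in CASC5 and SPEN the called windows form short runs, and in MBD6 the lines run together.

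Some exons were enriched from end to end, and others had many called windows over part of their length. At least 80% of windows were called in 13 exons. NUFIP2, an RNA-binding partner of the fragile X protein, had 34 of 35 windows called in 1 run, with a mean coverage of 87.0 in the IP and 7.15 in the input. YTHDF3, a cytoplasmic m6A reader, had 30 of 32 windows called, with means of 75.7 in the IP and 7.47 in the input and a score of 5.55. PCNX, whose fly counterpart pecanex acts in Notch signalling, had 31 of 35 (score 5.40), and TNRC6B, a GW182 protein of microRNA silencing, 31 of 47 (4.80). PKD1, which encodes the membrane protein polycystin-1, had the most called windows, 39 of 73 in 4 regions. PKD1 has near-identical pseudogene copies, so its reads may be shared with them. NR3C1, the glucocorticoid receptor gene, was chosen after its values were seen because all 24 of its 24 windows were called.

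The exons with most windows had moderate scores and few called windows. SPEN, an RNA-binding transcriptional repressor, had 6 of 164 windows called and a score of 2.90. MKI67, the proliferation antigen Ki-67, had 4 of 137 called and 2.35. SRRM2, a scaffold of nuclear speckles, had 5 of 135 and 3.49, ANKRD11, a chromatin cofactor, 2 of 132 and 2.24, and ALMS1, a centrosomal protein, 5 of 123 and 2.28. The first 4 of these exons held 53.3% to 68.9% of their gene's windows and ALMS1's 45.6%. Without centring 30 SPEN windows, 33 MKI67 windows, 6 SRRM2 windows, 22 ANKRD11 windows and 25 ALMS1 windows reached a log2 ratio of 2. The MKI67 exon averaged 130 in the IP and 33.7 in the input, and the SRRM2 exon 172 and 81.4.

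Among the 207 exons with a mean input of at least 5, 167 had a region (80.7%, 74.6 to 85.8). The lowest scores in this group came from NPIPL3, a member of a recently duplicated family whose reads may be shared between copies (0.21), RBM47, an RNA-binding protein (0.45), another exon of MLL2 (0.53), MARCH7, a ubiquitin ligase (0.57), and MBD6, of the methyl-CpG-binding domain family (0.59). This order rests on centring: without it the scores were 1.13 in NPIPL3, 0.95 in RBM47, 0.997 in the MLL2 exon, 0.30 in MARCH7 and 0.64 in MBD6. MBD6 averaged 15.2 in the IP and 12.1 in the input, and MARCH7 7.62 and 8.59. NPIPL3 averaged 64.6 in the IP and 33.1 in the input, the MLL2 exon 12.3 and 8.45, and RBM47 8.20 and 5.73, so 4 of these 5 exons had a deeper input than NUFIP2 and YTHDF3 and RBM47 a shallower one.

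Exons of 1 gene share the gene medians, and 38 genes had at least 2 member exons. All of a gene's member exons had a region in 16 genes, some of them in 17 and none in 5. The highest and lowest exon score of a gene differed by a median of 1.21, by over 1 in 21 genes and by over 2 in 9. The following examples beyond the highest exon were chosen after their values were seen. MLL2, a histone methyltransferase of the MLL family, had 6 member exons with scores between 0.53 and 3.95, of which 4 had a region. BRCA2, a protein of homologous recombination, scored 4.57 in an exon of 23 windows and 2.44 in the adjoining exon of 99 windows. GOLGB1, the Golgi protein giantin, scored 3.64 in an exon of 39 windows and 1.32 in one of 104.

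Genes were also read by 7 lists of proteins that tend to have very long exons, set beside all 567 distinct exons (435 with a region, median score 2.98, 19.4% of windows called). Of 64 chromatin regulators that met the input minimum, 32 had a member exon, and a region was found in 40 of 46 exons. The median score was 3.13, with 18.2% of windows called (16.6 to 20.01). NCOA2 led the list, followed by NSD1, a histone H3 lysine 36 methyltransferase (5.43), and MLL4, a histone H3 lysine 4 methyltransferase (5.02). NSD1 had 22 of 52 windows called in 3 regions and a peak of 125 in the IP and 1.38 in the input, which is only 22 input reads (90.5-fold, 60.6 to 148). BRPF3, a scaffold of histone acetyltransferase complexes, was lowest at 2.03 by its highest exon.

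RNA-binding and m6A proteins had a region in 16 of 18 exons, a median score of 3.43 and 17.6% of windows called (15.4 to 20.1). After YTHDF3 and TNRC6B came SON, a splicing cofactor of nuclear speckles, at 4.28, with 24 of 119 windows called in 5 regions and a peak of 1371 in the IP and 28.2 in the input. ACIN1, an apoptosis and splicing factor, was lowest at 1.43 with 13.5 in the IP and 12.0 in the input on average. Median input in this list was 7.96, against 3.76 over all distinct exons.

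Zinc finger factors had a region in 23 of 27 exons, a median of 2.98 and 11.6% of windows called (9.98 to 13.3). The transcriptional regulators TRERF1 and ZBTB44 scored 4.97 and 4.80, and HIVEP2, which binds enhancer motifs of immune genes, 4.32. The 112 windows of the HIVEP2 exon held a single run of 6 called windows. ZFAT was lowest at 0.80, with an input of 0.605 at its peak, which is 10 reads. Median exon length in this list was 43 windows, against 31 over all distinct exons.

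Immune and NF-kB signalling genes had a region in 15 of 19 exons, with a median of 2.77 and 26.2% of windows called (22.7 to 29.8). That median score lay below the 2.98 over all distinct exons, and the median exon length was 29 windows, against 31. MAP3K1 led, followed by FOXO1, a forkhead factor that restrains B cell proliferation, at 5.10 with 20 of 28 windows called, and BIRC6, a giant inhibitor of apoptosis, at 4.72 with 26 of 28. NFATC1, a calcium-regulated transcription factor, was lowest at 0.72, although its exon averaged 10.2 in the IP and 5.90 in the input. Cytoskeletal and membrane traffic genes had a region in 17 of 20 exons, a median of 3.11 and 18.5% called (16.1 to 21.2). DENND4A, an activator of RAB GTPases, scored 5.27, MACF1, a linker of actin and microtubules, 3.91, and RAB11FIP1, a RAB11 effector, was lowest at 1.03.

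DNA damage and mitotic genes had the lowest median scores of the 7 lists. A region was found in 13 of 17 exons of DNA damage and replication genes. Their median score was 2.61, with 11.6% of windows called (9.52 to 13.9). BRCA2 led, followed by MSH6, a mismatch repair protein (4.49, 17 of 51 windows), and TP53BP1, a mediator of double-strand break repair (3.72). MDC1, which binds damaged chromatin, was lowest at 1.77 in its highest exon. For mitotic and centrosomal genes it was 13 of 23 exons, a median of 2.35 and 10.1% called (8.39 to 11.9). KIF14, a kinesin of cytokinesis, scored 5.10, CASC5 (KNL1), the kinetochore scaffold, 5.03, and TACC3, a spindle microtubule protein, 4.13. CASC5 had 10 of 101 windows called with a peak of 213 in the IP and 2.29 in the input, and ESPL1, the protease separase, was lowest by its highest exon at 1.64. Median exon length was 47 windows in the DNA damage list and 38 in the mitotic list, and median input 2.36 and 3.59. Without centring the median exon scores of these 2 lists were 3.18 and 3.16, against 3.45 over all distinct exons, so their distance from the rest was smaller. The immune list (2.96) and the cytoskeletal and membrane traffic list (3.09) then stood below both.

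**Figure D5:**
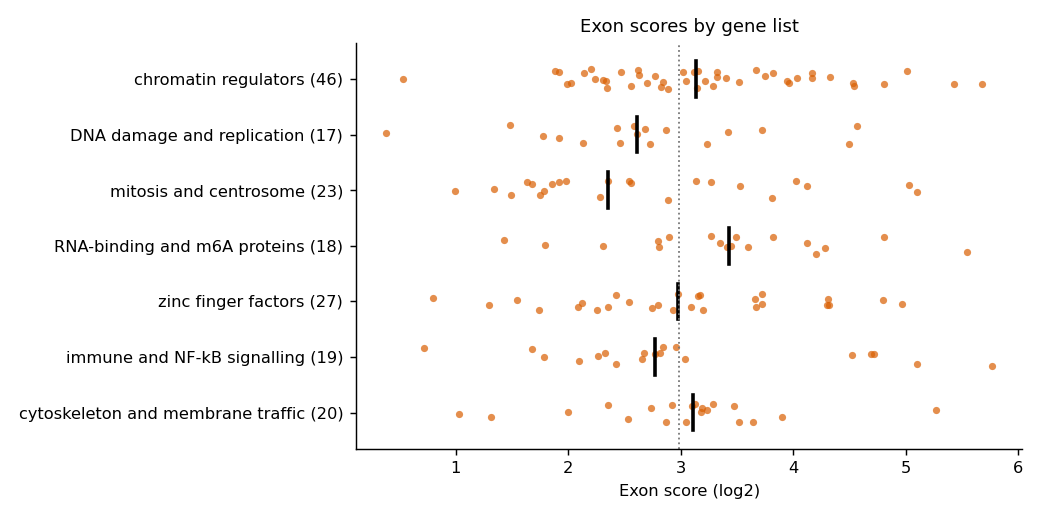
Exon scores (log2) of very long internal exons in 7 gene lists, 1 point per distinct exon, with the number of exons in brackets. Black bars are list medians and the dotted line is the median of all distinct exons (2.98); every list spans more than 2 log2 units.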

How the data were processed

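One input and 1 IP library of GM12878 RNA were analysed. The submitters' processing notes name the aligner TopHat 1.1.3 and the build hg19. The coverage program and the annotation were not given in the sources used here, nor was the library scaling. The coverage and gene-median columns deposited by the authors are a signal, scaled per library. The deposited window score is in log2 units, with 1 added to each of its 4 terms, and recomputing it from the other columns gave the same values. Coverage moved in whole steps in both libraries (100% of values above 0), and a coverage of 1 equalled about 10.3 reads of 36 nt per window in the IP and 16.2 in the input.

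For each of 47352 gene names the longest listing was kept. Analyses ran in Python 3.11.15 with scipy 1.17.1, pandas 2.3.3, numpy 2.4.6 and, for plots, matplotlib 3.10.9. Calling of regions was also run on simulated coverage, with independent windows centred on the exon's own median. The data have overlapping windows and gene medians, so no conclusion is drawn from that simulation. Peak folds of IP over input carry exact conditional binomial intervals. Named were the 10 highest exon scores with a region of at least 3 windows, the 5 exons with most called windows, the 5 with most windows, the 5 lowest with mean input of at least 5, and the 3 highest and 1 lowest genes of each list. For genes with several member exons the highest was named unless stated. Members and lists were chosen with earlier results of these data known. Of the 540 names, 504 matched a RefSeq symbol (GRCh38.p14), used for names and strand. Alternatives varied the threshold, the number added, the centring, the input minimum, exon length and weighting.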

Additional observations from a re-analysis of the deposited data

How the results depend on the processing

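With 1 library a group, no result has a replicate check, and depth limits exons whose peak input rests on few reads. The share of member windows called, 19.2%, was 42.9% at a score of 1 and 7.06% at 3, 23.5% and 11.03% with 0.1 and 5 added instead of 1, 28.4% without centring, 18.6% and 8.61% with a gene input minimum of 5 and with none, 24.0% among better covered windows (input reaching both 5 and the gene's median), 15.8% in exons of 31 or more windows, 22.4% with exons counted equally and 27.4% with medians over the other exons. The share of exons with a region, 76.8%, was 93.0% and 48.1% at scores of 1 and 3, 81.6% and 61.6% with 0.1 and 5 added, 85.0% without centring, 37.5% without the input minimum, 80.7% in exons of 31 or more windows, 82.6% with medians over the other exons and 58.0% for runs of at least 4 windows. The share in windows at least 250 nt inside minus that in edge windows, 14.7 points, was 28.6 and 5.90 at scores of 1 and 3 and 9.31 with 5 added. Its edge windows (5.55% called) include the partly empty last-listed ones. The first-listed ends alone had 16.7% at 3′ and 3.31% at 5′ edges, so the 14.7 points overstate the difference at 3′ edges.

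The internal minus longer terminal difference at 21 to 40 windows, 16.4 points, was 29.6 and 6.57 at scores of 1 and 3, 18.9 and 9.61 with 0.1 and 5 added, 19.5 without centring, 7.92 without the input minimum, 14.6 in exons of 31 or more windows and 19.1 with medians over the other exons. Above 40 windows, 3.61 points became 17.2 at a score of 1, -0.323 at 3, 5.29 and 0.602 with 0.1 and 5 added, 11.8 without centring, 2.24 and 1.05 with an input minimum of 5 and with none, -3.15 among those better covered windows, 4.57 with exons counted equally and 11.6 with medians over the other exons. The cause of the 2 reversals was not tested. The 49 named scores compared here are those of each gene's highest exon. With 5 added, 36 of them moved beyond their counting interval. With 0.1 added 10 moved, without centring 19, and with medians over the other exons 14. Among these 49, scores of 4 exons crossed 2. ANKRD11 (2.24) and BRPF3 (2.03) were 1.64 and 1.12 with 5 added, and ESPL1 (1.64) was 2.73 with 0.1 added. MDC1 (1.77) was 2.34 with 0.1 added, 2.35 without centring and 2.01 with medians over the other exons. Of the exons named beside a gene's highest, those of ALMS1 with 123 windows (2.28) and BRCA2 with 99 (2.44) also crossed 2. They were 1.76 and 1.78 with 5 added. Medians over the other exons and identical exons counted once (19.4% of windows, 76.7% of exons) were added after seeing the data. No paired analysis was possible because the labels give no replicate numbers and each group has 1 library.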
